A study of Homo sapiens with 2 samples.

Results

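Barcodes with a mitotic RNA programme were compared with non-mitotic barcodes of the same droplet capture, in which RNA and open chromatin (ATAC) were read from each barcode. The capture held 5 established human lung adenocarcinoma lines, H2228, H1975, A549, H838 and HCC827, which per the labels' protocols were grown apart to near confluency, frozen and mixed in equal parts. There is 1 RNA library and 1 ATAC library, and the labels name no replicate culture, so no test across samples could be made. Every interval is a 95% interval. Those of counted shares, levels and ratios cover counting error only. Those of medians cover the spread over the barcodes, genes or peaks of this 1 capture. None covers variation between cultures. The members were selected on their RNA: a mitotic score was the share of UMIs (unique molecular identifiers, counted RNA molecules) outside mitochondrial (MT-) genes that came from TOP2A, MKI67, CENPF, TPX2, HMMR and KIF11. Of 3298 barcodes, 2489 had 2000 to 40000 UMIs, at least 1000 peak counts and at most 20% MT- UMIs. Of these, 81 were mitotic (score of at least 0.3% and at least 8 score UMIs), 1729 were non-mitotic (score under 0.05%) and 679 lay between. The mitotic barcodes made up 3.25% of those kept (exact binomial interval 2.59 to 4.03%).

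A cell copies its DNA in S phase, passes through G2 and divides in mitosis. Genes needed for division are switched on from late S phase through G2 and reach their peak in mitosis, largely under the transcription factors B-MYB with the MuvB complex and FOXM1, while the DREAM complex holds them down in resting and G1 cells. Their promoters often carry CCAAT boxes, bound by NF-Y, and a cell cycle homology region with the core TTTGAA, bound by MuvB. In mitosis itself the chromosomes condense and most transcription stops, while many promoters stay accessible. RNA of this programme is present in late G2 as well as in mitosis, so the score does not separate those stages.

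The promoters of the leading genes are shown first because these motifs recur in them. They belong to the 6 genes with the highest line-balanced RNA ratios, as defined below, among those with a single entry in the RefSeq table, and are printed in the direction of transcription from 250 bases before to 50 bases after the gene start (RefSeq, GRCh38.p14). Capitals mark TTTGAA and CCAAT on either strand, so that TTCAAA and ATTGG are the same motifs on the other strand. Matches of the 2 motifs can overlap by at most 1 base.

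PIF1: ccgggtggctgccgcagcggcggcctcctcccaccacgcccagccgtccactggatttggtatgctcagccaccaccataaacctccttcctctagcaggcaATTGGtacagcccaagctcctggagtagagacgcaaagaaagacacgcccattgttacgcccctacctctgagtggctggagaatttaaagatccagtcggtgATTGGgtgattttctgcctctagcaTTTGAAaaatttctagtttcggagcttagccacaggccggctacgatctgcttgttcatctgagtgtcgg
KIF14: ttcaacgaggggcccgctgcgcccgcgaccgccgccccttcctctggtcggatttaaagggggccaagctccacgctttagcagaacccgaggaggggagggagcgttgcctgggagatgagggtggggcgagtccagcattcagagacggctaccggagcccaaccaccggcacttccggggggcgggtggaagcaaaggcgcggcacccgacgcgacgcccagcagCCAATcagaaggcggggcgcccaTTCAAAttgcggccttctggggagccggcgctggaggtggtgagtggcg
CENPE: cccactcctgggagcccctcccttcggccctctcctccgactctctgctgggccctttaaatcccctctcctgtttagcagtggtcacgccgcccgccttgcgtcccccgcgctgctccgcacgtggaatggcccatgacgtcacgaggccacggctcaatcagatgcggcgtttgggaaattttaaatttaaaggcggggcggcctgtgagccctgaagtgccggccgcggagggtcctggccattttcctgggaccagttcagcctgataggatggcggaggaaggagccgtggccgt
GTSE1: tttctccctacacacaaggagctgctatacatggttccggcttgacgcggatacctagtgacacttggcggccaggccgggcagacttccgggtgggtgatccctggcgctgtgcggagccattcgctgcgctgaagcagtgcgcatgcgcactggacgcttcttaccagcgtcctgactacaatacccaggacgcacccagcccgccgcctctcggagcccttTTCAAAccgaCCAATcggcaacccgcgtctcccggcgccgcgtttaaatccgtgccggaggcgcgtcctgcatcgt
PRR11: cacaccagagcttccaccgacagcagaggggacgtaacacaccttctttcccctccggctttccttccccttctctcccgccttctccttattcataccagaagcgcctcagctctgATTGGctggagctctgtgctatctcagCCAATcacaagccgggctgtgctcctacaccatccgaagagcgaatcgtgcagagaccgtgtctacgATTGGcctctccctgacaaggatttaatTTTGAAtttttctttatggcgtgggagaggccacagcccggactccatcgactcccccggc
NDC80: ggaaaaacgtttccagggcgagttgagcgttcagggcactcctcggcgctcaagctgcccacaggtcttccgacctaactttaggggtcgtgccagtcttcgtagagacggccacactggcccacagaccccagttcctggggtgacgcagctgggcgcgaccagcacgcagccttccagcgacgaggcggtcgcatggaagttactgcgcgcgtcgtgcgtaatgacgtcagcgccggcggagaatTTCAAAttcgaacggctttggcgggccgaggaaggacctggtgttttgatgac

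The windows lie at chr15:64825598-64825897 on the minus strand for PIF1, a DNA helicase, and at chr1:200620702-200621001 on the minus strand for KIF14, a kinesin of cytokinesis. The window of CENPE, a kinesin that moves chromosomes to the metaphase plate, lies at chr4:103198294-103198593 on the minus strand. That of GTSE1, a microtubule-binding protein of S and G2 phase, lies at chr22:46296620-46296919 on the plus strand. PRR11, a proline-rich protein of the G2 and M programme, has its window at chr17:59155496-59155795 on the plus strand, and NDC80, the kinetochore subunit that grips microtubules, at chr18:2571307-2571606 on the plus strand. TTTGAA was found in 5 of these 6 windows, 20 bases before the start in PIF1, 26 before in GTSE1, 11 before in PRR11, 3 before in NDC80 and 1 after the start in KIF14. The CENPE window held neither motif and the NDC80 window held no CCAAT.

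Over 120 genes of G2 and mitosis outside the score, set out in 5 lists of kinases and checkpoint proteins, cyclins and the anaphase-promoting complex (APC/C), spindle and cytokinesis, centromere and kinetochore, and condensin and cohesin, 103 had a promoter in the table. TTTGAA stood in 58 of them, or 56.3% (46.2 to 66.1%), against 10.5% of 6258 measured genes with a promoter and 15.4% of all 27305 promoters. CCAAT stood in 68.9% of the G2 and mitosis promoters, against 37.6% of measured genes and 35.7% of all promoters. Both motifs stood together in 38.8%, against 4.67% of measured genes. S phase genes carried CCAAT in 24 of 34 promoters (70.6%) but TTTGAA in 2 (5.88%). Among 185 promoters of genes that were 2-fold higher in mitotic barcodes and belonged to no list, 27.0% held TTTGAA and 54.6% held CCAAT. A match is a match of letters, and binding was not measured.

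The score chose the groups, so its values are a description. The score was 0.301% at the lowest, 0.363% at the median and 0.824% at the highest in mitotic barcodes, and 0, 0 and 0.04998% in non-mitotic barcodes. The barcode nearest below the mitotic limit had 0.2995%, and the one nearest above the non-mitotic limit 0.0501%. One barcode passed 0.3% with too few score UMIs and stayed between the groups, and 890 non-mitotic barcodes had no score UMI at all. TOP2A, the topoisomerase that untangles sister chromatids, had 1248 CPM (UMIs per 1000000 UMIs outside MT- genes) in mitotic barcodes and 28.4 CPM in non-mitotic barcodes, and was seen in all 81 mitotic barcodes and in 334 of 1729 non-mitotic ones. CENPF had 1015 and 29.1 CPM, TPX2 634 and 19.0 CPM, MKI67 303 and 12.2 CPM, HMMR 286 and 5.25 CPM, and KIF11 226 and 10.2 CPM in mitotic and non-mitotic barcodes.

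Mitotic barcodes came from each line in unequal numbers. Barcodes were given to a line by summed marker genes (at least 4 UMIs, every other line at most 25% of that sum) and are called by the leading marker. Of the RBFOX3 line 31 of 666 barcodes were mitotic (4.65%, 3.18 to 6.54%), of the SLC30A8 line 18 of 463 (3.89%, 2.32 to 6.07%), of the DHRS2 line 5 of 175 (2.86%, 0.934 to 6.54%) and of the GRIA4 line 5 of 211 (2.37%, 0.774 to 5.44%). The S100A9 line had 1 mitotic barcode among 277 (0.361%, 0.00914 to 1.99%), and 93.9% of its barcodes were non-mitotic, against 53.1% in the SLC30A8 line. The intervals of the RBFOX3 and S100A9 lines do not overlap, while those of the 4 lines other than S100A9 overlap each other. The remaining 21 mitotic barcodes had no line, 17 for too few marker UMIs and 4 for mixed markers. Mixed markers were held by 4.94% of mitotic and 8.16% of non-mitotic barcodes. Because the lines differ in these shares, a pooled ratio mixes the cell cycle with line composition: the RBFOX3 line gave 38.3% of mitotic and 23.8% of non-mitotic barcodes, and the S100A9 line 1.23% and 15.0%. Ratios within the RBFOX3 and SLC30A8 lines, each with at least 10 barcodes in both groups, therefore stand beside the pooled ones, and their mean is the line-balanced ratio.

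RNA depth differed little in the pool and more within lines. The summed RNA came to 799917 UMIs outside MT- genes in mitotic barcodes and 16750993 in non-mitotic ones, and the ATAC library to 1911264 and 43950567 peak counts. Peak counts per barcode had a median of 18052 (13683 to 26098) in the mitotic group and 22125 (21099 to 22935) in the non-mitotic group. The median barcode had 7049 UMIs outside MT- genes (6244 to 9436) in the mitotic group and 7693 (7352 to 8103) in the non-mitotic group. Within the RBFOX3 line the medians were 5430 (4897 to 6871) in mitotic and 4168 (4032 to 4449) in non-mitotic barcodes, and within the SLC30A8 line 10170 (6674 to 13864) and 6837 (6300 to 7759). At a fixed 2000 UMIs per barcode, mitotic barcodes showed a median of 1455 genes and non-mitotic ones 1432 in the RBFOX3 line, and 1485 and 1468 in the SLC30A8 line (2 non-mitotic barcodes were too shallow). The median MT- share was 1.11% in mitotic and 4.12% in non-mitotic barcodes of the pool, but 0.616% and 0.424% within the RBFOX3 line. The part of depth and of the MT- share in the results below was not tested beyond the depth ranges given there.

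G2 and mitosis genes outside the score were also higher in mitotic barcodes, with some overlap. The 120 other genes took 0.561% of UMIs in the lowest, 2.18% in the median and 3.08% in the highest mitotic barcode, and 0.0985%, 0.359% and 2.42% in non-mitotic barcodes. The groups overlapped: 254 non-mitotic barcodes (14.7%) reached the lowest mitotic one, and 23 mitotic barcodes lay above every non-mitotic one. At the low end, 7 of the 81 mitotic barcodes lay at or under 1.08%, the 99th percentile of the non-mitotic group, so their label rests on the 6 score genes more than on the programme. Within the SLC30A8 line the ranges were apart, 1.86% to 2.88% in mitotic and 0.191% to 1.57% in non-mitotic barcodes. In the RBFOX3 line they were 0.834% to 3.08% and 0.129% to 2.07%, and overlapped.

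**Figure D1:**
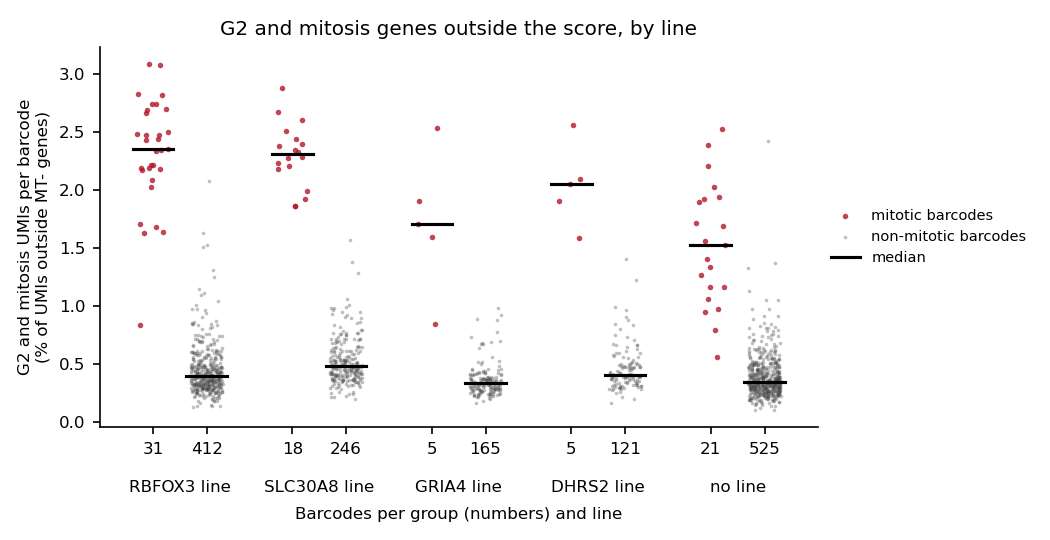
Share of each barcode's UMIs outside MT- genes (y axis, percent) from 120 G2 and mitosis genes outside the score, by line (x axis) with mitotic barcodes in red left of non-mitotic barcodes in grey; numbers under the axis count barcodes, bars are medians, and the S100A9 line with its 1 mitotic barcode is not drawn. In the RBFOX3 line the medians were 2.35% in mitotic and 0.389% in non-mitotic barcodes, and barcodes without a line had the lowest mitotic median, 1.52%.

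Of 36601 genes, 7939 outside the score were measured, meaning that at least 20 UMIs were expected in the smaller group at the mean level of both. Of these, 371 (4.67%) were at least 2-fold higher and 308 (3.88%) at least 2-fold lower in mitotic barcodes, as log2 ratios of CPM + 1, which understate the change of low genes. With the line-balanced ratio the counts were 340 higher and 788 lower. That ratio rests on 31 and 18 mitotic barcodes, in which many lower genes had no UMI. The score was drawn from the same RNA, so these counts describe the groups and support nothing. Of the 371 higher genes, 275 were also at least 1.5-fold higher in both lines, and of the 308 lower genes, 119 were also at least 1.5-fold lower in both. Over all measured genes, 438 (5.52%) were 1.5-fold higher and 604 (7.61%) 1.5-fold lower in both lines. The median log2 ratio of all measured genes was 0.05 in the pool, -0.07 in the RBFOX3 line and -0.07 in the SLC30A8 line.

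The 12 genes with the highest line-balanced ratio, among genes at least 1.5-fold higher in both lines, were PIF1, KIF14, CDC25C, CENPE, GTSE1, PRR11, NDC80, DLGAP5, TROAP, CDCA3, FAM83D and CDCA8. PIF1 had 244 CPM (195 UMIs) in mitotic barcodes and 1.91 CPM (32 UMIs) in non-mitotic barcodes, a log2 ratio of 6.39. It was seen in 60 of 81 mitotic barcodes and in 29 of 1729 non-mitotic ones, with 71 UMIs against 1 in the RBFOX3 line and 40 against 3 in the SLC30A8 line. KIF14 had 498 CPM in mitotic and 7.82 CPM in non-mitotic barcodes, a log2 ratio of 5.82, and 951 against 15.9 CPM within the RBFOX3 line. CDC25C, the phosphatase that starts mitosis by activating CDK1, had 215 CPM in mitotic and 3.04 CPM in non-mitotic barcodes (log2 ratio 5.74). PIF1 and CDC25C thus had few UMIs in the non-mitotic group, while CENPE had 561 CPM in mitotic and 14.7 CPM in non-mitotic barcodes. Barcodes between the groups are not counted in these values.

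NDC80 had 178 CPM in mitotic and 3.76 CPM in non-mitotic barcodes (log2 ratio 5.23), with 4.65 within the RBFOX3 line and 5.11 within the SLC30A8 line. GTSE1 had 143 and 3.10 CPM, PRR11 294 and 8.78 CPM, and DLGAP5, a spindle assembly protein, 206 and 5.37 CPM in mitotic and non-mitotic barcodes. TROAP, which binds spindle microtubules, had 93.8 and 2.15 CPM, CDCA3 98.8 and 2.98 CPM, FAM83D, which anchors a kinase on the spindle, 174 and 5.25 CPM, and CDCA8, a subunit of the chromosomal passenger complex, 115 and 2.75 CPM. All 12 had log2 ratios of at least 4.08 in both lines.

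Across the 5 lists together, 88 of 103 measured members (85.4%, beside 4.67% of all measured genes) were 2-fold higher and none was 2-fold lower. Their median log2 ratio was 3.45 in the pool, 3.19 in the RBFOX3 line and 2.94 in the SLC30A8 line. Of the 120 members, 17 fell short of the minimum count. Summed, the 120 genes had 20198 CPM in mitotic and 3878 CPM in non-mitotic barcodes, 5.21 times as much (5.12 to 5.30). The summed ratio was 5.14 in the RBFOX3 line, 4.41 in the SLC30A8 line, 4.97 in the GRIA4 line and 4.37 in the DHRS2 line. The intervals of the RBFOX3 line (4.96 to 5.32) and the SLC30A8 line (4.26 to 4.56) did not overlap. The GRIA4 and DHRS2 lines rest on 5 mitotic barcodes each, and the S100A9 line, at 6.44, on 1. The pooled ratio lay above those of the 4 lines other than S100A9, and it mixes in line composition.

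**Figure D2:**
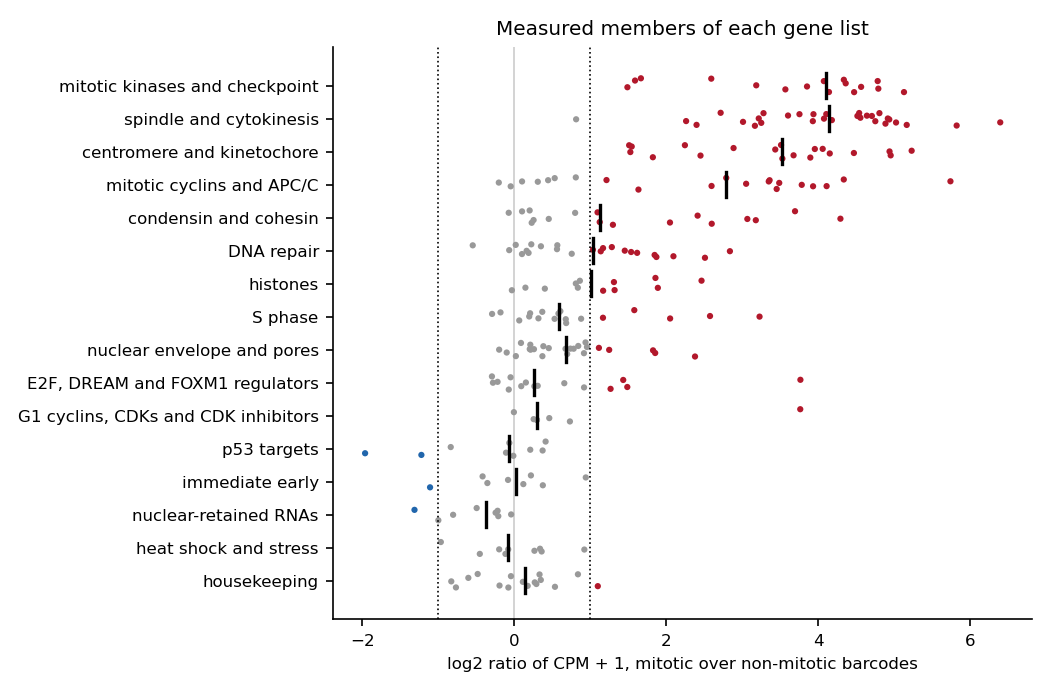
Log2 ratio of CPM + 1, mitotic over non-mitotic barcodes (x axis), of each measured member (points) of 16 gene lists (y axis); black bars are medians, dotted lines mark 2-fold, red points are 2-fold higher and blue points 2-fold lower. The kinase, spindle and centromere lists lie almost wholly right of the 2-fold line, with medians of 4.11, 4.14 and 3.53, while the cyclin, condensin, DNA repair and histone lists straddle it.

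All 16 measured kinases and checkpoint genes were 2-fold higher (median log2 ratio 4.11). BUB1, a checkpoint kinase at unattached kinetochores, had 308 CPM in mitotic and 10.1 CPM in non-mitotic barcodes. AURKB, the kinase of the chromosomal passenger complex, had 209 and 6.63 CPM, AURKA, the spindle pole kinase, 194 and 10.6 CPM, and CDK1, the kinase that drives mitosis, 185 and 6.87 CPM. The smallest ratio of the list, 1.49 on the log2 scale, belonged to BUB3, a checkpoint protein with 125 and 43.9 CPM.

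In the spindle and cytokinesis list 29 of 30 measured genes were 2-fold higher (median 4.14). ASPM, which focuses spindle poles, had the highest level, 905 CPM in mitotic and 33.7 CPM in non-mitotic barcodes. It had 1112 and 88.9 CPM within the RBFOX3 line and 953 and 61.2 CPM within the SLC30A8 line. ECT2, the exchange factor that starts the cleavage furrow, had 549 and 82.7 CPM, ANLN, the actin scaffold of that furrow, 511 and 27.3 CPM, and KIF18A 388 and 42.3 CPM in mitotic and non-mitotic barcodes. NUMA1, the one member short of 2-fold, had 115 and 65.0 CPM. All 19 measured centromere and kinetochore genes were 2-fold higher (median 3.53), among them NUF2, a partner of NDC80, with 314 CPM in mitotic and 23.6 CPM in non-mitotic barcodes, and SGO2, a guardian of centromeric cohesion, with 271 and 15.3 CPM.

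The cyclin and APC/C list was split, with 14 of 21 measured members 2-fold higher (median 2.79). The cyclins and the switches of the APC/C were higher: CCNB1, the cyclin partner of CDK1, had 293 CPM in mitotic and 16.0 CPM in non-mitotic barcodes, UBE2C, the E2 enzyme of the APC/C, 119 and 7.70 CPM, and UBE2S, its chain-extending E2, 276 and 39.1 CPM. Core subunits lay near the median of all genes: ANAPC1 had 138 and 111 CPM, ANAPC5 116 and 120 CPM, and ANAPC7 100 and 73.1 CPM. CDC27, a core subunit too, had 286 and 123 CPM, a log2 ratio of 1.21.

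Condensin and cohesin were split in the same way, with 10 of 17 measured members (58.8%, beside 4.67% of all measured genes) 2-fold higher (median 1.13). SMC4, the ATPase of condensin, had 553 CPM in mitotic and 90.4 CPM in non-mitotic barcodes. The cohesin genes lay lower: RAD21, the ring's cleavable subunit, had 225 and 103 CPM, STAG1 584 and 272 CPM, STAG2 213 and 223 CPM, and the loader NIPBL 436 and 406 CPM. PDS5A, PDS5B and WAPL, which release or regulate cohesin, had log2 ratios of 0.26, 0.20 and 0.23.

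Of 18 measured genes of the S phase list, 5 (27.8%, beside 4.67% of all measured genes) were 2-fold higher, RRM2, RAD51AP1, BLM, EXO1 and BRIP1, and the median log2 ratio was 0.60 in the pool, 0.39 in the RBFOX3 line and 0.23 in the SLC30A8 line. RRM2, the small subunit of ribonucleotide reductase, had 175 CPM in mitotic and 17.8 CPM in non-mitotic barcodes, and 110 and 31.8 CPM within the SLC30A8 line. POLA1, the primase-bound polymerase, had 175 and 152 CPM, NASP, a histone chaperone, 111 and 106 CPM with log2 ratios of -1.12 in the RBFOX3 line and -0.57 in the SLC30A8 line, and HELLS, a chromatin remodeller, 80.0 and 63.9 CPM. Of the list's 45 genes, 27 had too few UMIs to be measured. In the line-balanced ratio 3 of the 18 were 2-fold higher.

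The barcodes between the groups placed the S phase genes at another point of the score. Summed, the 45 S phase genes had 1245 CPM at a score under 0.05%, 3141 CPM (3073 to 3211) from 0.05 to 0.1%, 2816 from 0.1 to 0.2%, 2205 from 0.2 to 0.3% and 1843 CPM (1750 to 1939) in the mitotic barcodes. The 120 G2 and mitosis genes had 3878, 8167, 12235, 16921 and 20198 CPM in the same classes of 1729, 237, 305, 136 and 81 barcodes. The S phase sum was thus highest just above the non-mitotic limit and lower at each higher score, while the G2 and mitosis sum was higher in each class. Within the SLC30A8 line the S phase sum was 1807, 4099, 2957, 2161 and 1992 CPM over the classes, and within the RBFOX3 line, where the top class lay one step later, 1460, 3031, 3246, 2276 and 1800 CPM. HELLS had 63.9, 161, 139, 120.5 and 80.0 CPM over the classes, and CENPE 14.7, 85.8, 219, 396 and 561 CPM. RRM2 departed from its list, with 17.8, 128, 155, 170 and 175 CPM.

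**Figure D3:**
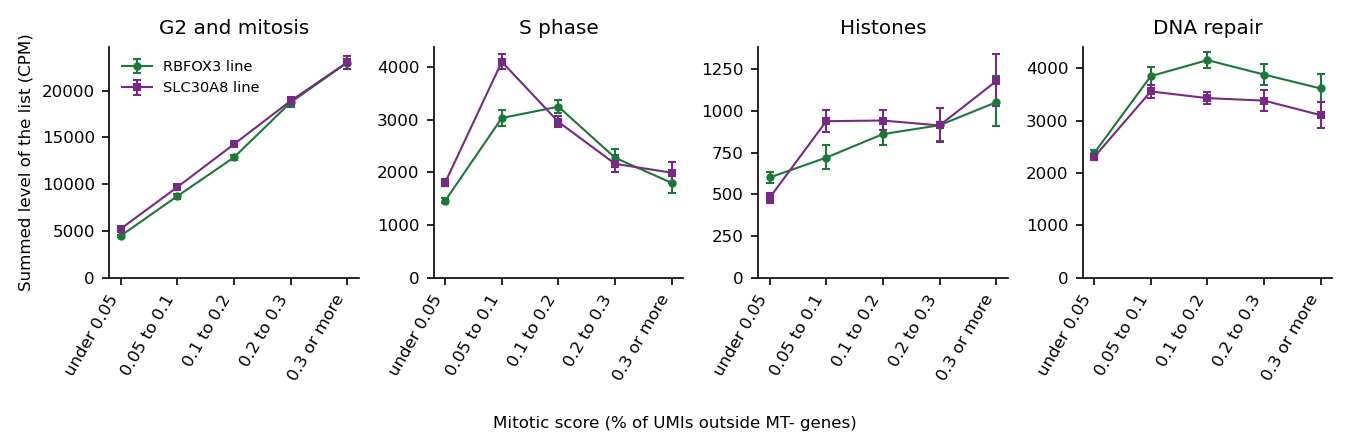
Summed level (y axis, CPM, 95% Poisson intervals) of 4 gene lists by mitotic score (x axis, percent of UMIs outside MT- genes) within the RBFOX3 and SLC30A8 lines; the lowest class holds the non-mitotic and the highest the mitotic barcodes. The G2 and mitosis sum climbs over all 5 classes to 22991 CPM in the RBFOX3 and 23018 CPM in the SLC30A8 line, while the S phase sum is highest at a score of 0.05 to 0.1% or of 0.1 to 0.2%.

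DNA repair genes lay between those patterns, with 12 of 23 measured members (52.2%, beside 4.67% of all measured genes) 2-fold higher (median 1.04). POLQ, the polymerase of end joining at microhomologies, had 221 CPM in mitotic and 30.1 CPM in non-mitotic barcodes, FANCI, of the crosslink repair pathway, 151 and 41.3 CPM, and BARD1, the partner of BRCA1, 171 and 61.8 CPM. ATR and ATM, the damage kinases, had log2 ratios of 0.10 and -0.07 in the pool and of -0.47 and -0.30 in the line-balanced ratio. The count fell to 7 in the line-balanced ratio. The summed list had 2104, 3322, 3401, 3344 and 3215 CPM over the score classes, so it was nearly level in every class above the non-mitotic one.

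Histone genes were 2-fold higher in 6 of 12 measured members (50%, beside 4.67% of all measured genes), with a list median of 1.02. The 6 were H2AFX, HIST1H1D, HIST2H2AC, HIST1H1E, HIST1H4C and H2AFZ. H2AFX, the variant marked at DNA breaks, had 56.3 CPM in mitotic and 9.37 CPM in non-mitotic barcodes, and H2AFZ, the variant H2A.Z, 205 and 90.6 CPM. H3F3A and H3F3B, the genes of the replacement variant H3.3, had 250 and 255 CPM and 241 and 182 CPM. Replication-dependent histone mRNAs carry no poly(A) tail as background, and the 71 histone cluster genes of the files summed to 743 CPM in mitotic and 315 CPM in non-mitotic barcodes. The count moved with the barcodes used: it was 3 of 9 without barcodes of no line and likely doublets, and 8 of 12 in the line-balanced ratio.

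Regulators of the programme were less uniform. Of 15 measured E2F, DREAM and FOXM1 regulators, 4 (26.7%, beside 4.67% of all measured genes) were 2-fold higher, FOXM1, LIN9, MYBL1 and LIN54. FOXM1, an activator of these promoters, had 110 CPM in mitotic and 7.16 CPM in non-mitotic barcodes, and was higher in both lines (log2 ratios 3.56 and 3.28). LIN9 and LIN54, subunits of MuvB, had 80.0 and 27.9 CPM and 78.8 and 32.1 CPM, while E2F3, RB1 and RBBP4 had log2 ratios of -0.07, 0.15 and -0.22. Of 7 measured genes of the G1 list, CDKN3 was the only one past 2-fold (14.3%, beside 4.67% of all measured genes). CDKN3, a phosphatase of CDKs whose RNA follows G2, had 149 and 10.0 CPM. CCND1, the G1 cyclin, had 128 and 103 CPM. CDK4 and CDK6, its kinase partners, had log2 ratios of 0.26 and 0.30 in the pool, but of -0.56 and -0.53 in the line-balanced ratio, and the median of the list was 0.30 in the pool and -0.53 line-balanced.

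Among nuclear envelope and pore genes 5 of 24 measured (20.8%, beside 4.67% of all measured genes) were 2-fold higher. The 5 were LMNB1, TMPO, SUN2, LBR and NUP37, against a list median of 0.69. TMPO, an anchor of lamins, had 344 CPM in mitotic and 94.3 CPM in non-mitotic barcodes, and LBR, the lamin B receptor, 203 and 84.6 CPM. LMNA, the A-type lamin, had 201 and 174 CPM, and TPR, the pore basket protein, 204 and 201 CPM.

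The ribosomal protein, heat shock and housekeeping lists had pooled medians near that of all genes. None of 80 measured ribosomal protein genes passed 2-fold either way (median log2 ratio -0.08), and none of 9 heat shock genes did (-0.08). Of 16 housekeeping genes 1, POLR2A, was higher (6.25%, beside 4.67% of all measured genes), with a list median of 0.15. The heat shock median was -0.04 in the RBFOX3 line and 0.52 in the SLC30A8 line. The summed heat shock ratio was 0.912 (0.771 to 1.07) in the RBFOX3 line and 1.46 (1.33 to 1.596) in the SLC30A8 line. It was 1.12 in the GRIA4 line and 1.76 in the DHRS2 line, each with 5 mitotic barcodes. The summed housekeeping ratio was 0.944 (0.864 to 1.03) in the RBFOX3 line and 1.21 (1.14 to 1.28) in the SLC30A8 line. For ribosomal proteins it was 0.917 and 1.05. The nuclear-retained MALAT1 and NEAT1 had log2 ratios of -0.22 and -0.80, and MIR100HG, with 513 CPM in mitotic and 1274 CPM in non-mitotic barcodes, was the one member 2-fold lower. It was at -0.23 within the RBFOX3 line and -0.64 within the SLC30A8 line. Of the p53 targets, GDF15 and PLK2 were 2-fold lower in the pool. GDF15, a stress-induced secreted factor, had 40.0 and 159 CPM, with a log2 ratio of -0.32 in the RBFOX3 line, and PLK2 21.3 and 50.9 CPM, with 0.27 in the SLC30A8 line. IER3, the one immediate early gene 2-fold lower, was at 0.31 in the RBFOX3 line. IFI44L, the one interferon-stimulated gene 2-fold higher in the pool (76.3 and 37.2 CPM), had 0 UMIs in the mitotic barcodes of both lines and 5 and 3 UMIs in the non-mitotic ones, too few to give a direction within a line. The median log2 ratio of the 9 measured interferon-stimulated genes was 0.31 in the pool, -0.98 in the RBFOX3 line and -0.96 in the SLC30A8 line. Of the 9, 4 were 1.5-fold lower in both lines, beside 7.61% of all measured genes. Of those 4, IFI44, IFI44L and XAF1 had no UMI in mitotic barcodes of either line and at most 5 in non-mitotic ones. BST2, a membrane tether of viruses, had 3 UMIs in 31 mitotic and 78 in 412 non-mitotic barcodes of the RBFOX3 line. In the SLC30A8 line it had 3 in 18 and 66 in 246. These are counts from groups of unequal size, not ratios, and with 3 UMIs the BST2 ratio of each line is only loosely set.

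Markers of other cell types had low sums, with no immune or red cell gene measured. The 10 immune markers summed to 27.5 CPM in mitotic and 36.3 CPM in non-mitotic barcodes, with 2 of the 10 at 0 in all barcodes of both groups, and the 5 red cell markers to 0 and 0.418 CPM, with 4 at 0. The endothelial list summed to 13.8 and 47.3 CPM and the fibroblast list to 10.0 and 73.7 CPM, with 1 of its 7 genes at 0. The fibroblast sum was 39.8 CPM in mitotic and 192 CPM in non-mitotic barcodes of the DHRS2 line, and 119.6 and 137 CPM in the S100A9 line with its 1 mitotic barcode. PECAM1 and COL1A1, the one measured gene of each list, were 2-fold lower in the pool. COL1A1 had 0 UMIs in mitotic and 14 in non-mitotic barcodes of the RBFOX3 line and 0 and 17 in the SLC30A8 line, and PECAM1 0 and 12 and 2 and 34. The labels name only the 5 cultured lines and no other cell type, and the source of these UMIs was not tested.

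The lowest genes rested on few UMIs. The 12 lowest by line-balanced ratio were FAM155A, HDAC9, HCG17, KCNQ3, LINC00571, PML, AL157778.1, LINC01748, LINC02474, MICAL2, FIRRE and SLC16A7. In each line 11 of the 12 had no UMI in mitotic barcodes, and the non-mitotic UMIs numbered 22 to 147 in the RBFOX3 line and 18 to 79 in the SLC30A8 line. A count of 0 allows up to 16.1 CPM in the RBFOX3 line and 15.1 CPM in the SLC30A8 line (3 UMIs), and 6 of the 12 were not 2-fold lower in the pool. FAM155A had 120 UMIs in 14 non-mitotic barcodes of the RBFOX3 line, of which 24 came from 1 barcode. LINC02474 had 153 CPM in mitotic and 107 CPM in non-mitotic barcodes of the pool, the other direction.

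A smaller set with more counts was chosen after the values were seen. Of the 119 genes lower in the pool and in both lines, 32 had at least 5 UMIs expected in the mitotic barcodes of each line, and 5 had counting intervals below equal levels in both lines: MAP2, DISC1, KLHL24, PLA2R1 and AHR. KLHL24, a ubiquitin ligase adaptor, had 42.5 CPM in mitotic and 117 CPM in non-mitotic barcodes. It had 21.5 against 67.5 CPM (4 against 161 UMIs) in the RBFOX3 line and 5.02 against 52.2 CPM (1 against 110 UMIs) in the SLC30A8 line. AHR, the aryl hydrocarbon receptor, had 395 and 821 CPM. Within the RBFOX3 line it had 199 against 299 CPM (37 against 713 UMIs), and within the SLC30A8 line 70.3 against 140 CPM (14 against 295 UMIs). Its line-balanced log2 ratio was -0.79, short of 2-fold. DISC1 had 28.8 and 63.3 CPM and PLA2R1, a phospholipase A2 receptor, 10.0 and 53.8 CPM. MAP2, a microtubule protein, had 45.0 and 178 CPM, with 0 UMIs in 31 mitotic barcodes of the RBFOX3 line against 128 in 412 non-mitotic ones (53.7 CPM). In the SLC30A8 line it had 80.3 against 157 CPM. Chosen this way, the set supports nothing beyond these values.

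Many higher genes stood in no list. Of the 371 genes, 125 were in a list and 246 in none, and 162 of the 246 were at least 1.5-fold higher in both lines. PRR11, TROAP and CDCA3 above are among them. CDCA2, which brings a phosphatase to chromatin at mitotic exit, had 265 CPM in mitotic and 8.66 CPM in non-mitotic barcodes, and KPNA2, an importin that carries cargo into the nucleus, 310 and 29.7 CPM. GAS2L3, a linker of actin and microtubules, had 275 and 11.5 CPM. ARHGAP11B had 365 and 15.6 CPM, but it is a partial copy of ARHGAP11A (154 and 8.18 CPM) and the counts of the pair may be shared. These genes were named after their values were seen.

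The ATAC library entered the choice of barcodes only through the minimum of 1000 peak counts, which both groups had to pass, and where in the genome those counts lay was not used. Mitotic barcodes held a larger share of their peak counts at promoters, here peaks within 1000 bases of an annotated gene start. The share was 64.8% at the median mitotic barcode (63.3 to 65.5%) and 58.4% at the median non-mitotic one (58.1 to 58.7%). Within the RBFOX3 line it was 66.2% (64.8 to 69.2%) and 63.8% (63.2 to 64.1%), and within the SLC30A8 line 65.4% (64.5 to 67.3%) and 61.3% (60.8 to 61.7%). The 5 mitotic barcodes of the GRIA4 line had a median of 60.4% against 56.8% in 165 non-mitotic ones, and the 5 of the DHRS2 line 51.6% against 51.9% in 121. The direction was thus shared by 3 of the 4 lines. The barcodes overlapped: 25 of 31 mitotic barcodes in the RBFOX3 line and 17 of 18 in the SLC30A8 line lay above the non-mitotic median, and 19.4% and 8.13% of non-mitotic barcodes lay above the mitotic median.

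The share was higher in each score class of both lines. It was 63.8, 64.0, 64.9, 66.2 and 66.2% over the 5 classes in the RBFOX3 line and 61.3, 62.0, 63.1, 64.5 and 65.4% in the SLC30A8 line. Depth moved with score too, with medians of 23476, 28099, 29682, 30931 and 28530 peak counts over the classes in the RBFOX3 line and 15798, 21097, 21636, 15936 and 16174 in the SLC30A8 line. Among barcodes of 10000 to 30000 peak counts, the median share was 65.1% in 12 mitotic and 64.0% in 200 non-mitotic barcodes of the RBFOX3 line, and 65.4% in 13 and 61.0% in 157 of the SLC30A8 line. Among those with 30000 or more it was 67.0% in 13 mitotic and 62.4% in 122 non-mitotic barcodes of the RBFOX3 line. The top 10% of peaks, ranked in the barcodes of neither group, held 73.2% of mitotic and 67.7% of non-mitotic counts in the RBFOX3 line, and 70.2% and 62.8% in the SLC30A8 line. Of those counts, promoter peaks held 80.7% in mitotic and 80.0% in non-mitotic barcodes of the RBFOX3 line, and 81.6% and 80.9% in the SLC30A8 line. This measure is therefore not separate from the promoter share. Peaks 1000 to 10000 bases from a gene start held 13.6% of mitotic and 14.6% of non-mitotic counts in the pool.

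**Figure D4:**
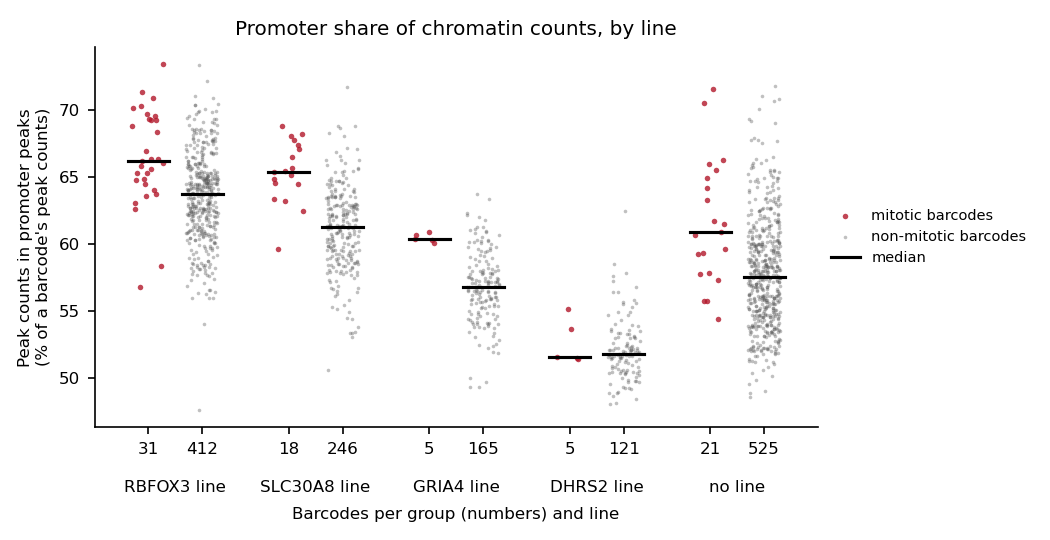
Share of each barcode's peak counts in peaks within 1000 bases of a gene start (y axis, percent), by line (x axis) with mitotic barcodes in red left of non-mitotic barcodes in grey; numbers under the axis count barcodes, bars are medians, and the S100A9 line is not drawn. The mitotic median is higher in the RBFOX3, SLC30A8 and GRIA4 lines and in barcodes of no line, and 51.6% against 51.9% in the DHRS2 line.

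Few single peaks passed 2-fold. Of 187920 peaks, 9433 were measured (at least 50 counts expected in the smaller group), and 65 (0.689%) were at least 2-fold higher and 9 (0.0954%) at least 2-fold lower in mitotic barcodes. At least 1.5-fold in both lines, 213 (2.26%) were higher and 105 (1.11%) lower. The median log2 ratio of measured peaks was 0.23, and 42 of the 65 higher peaks lay at promoters, as did 8059 of the 9433 measured ones.

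Promoter peaks of the G2 and mitosis genes differed less between the groups than their RNA. Of the 103 measured genes of the 5 lists, 88 had a promoter peak past the minimum count. That these peaks held counts follows from this choice. In 88 genes with a measured promoter peak, the median log2 ratio was 3.31 for RNA and 0.39 (0.34 to 0.43) for the peak, beside 0.24 (0.23 to 0.24) for the promoter peaks of all 5432 such genes. The line-balanced medians were 0.37 and 0.14. The promoter peaks of 18 S phase genes had a median of 0.14, and those of 62 ribosomal protein genes 0.32. Of the 88 peaks 4 were 2-fold higher, at KIF18B, UBE2C, AURKB and CCNB2, and 11 of the 5432 were. The KIF18B peak (chr17:44947355-44948236) had 53.9 CPM (here of all peak counts) in mitotic and 24.4 CPM in non-mitotic barcodes, with log2 ratios of 1.40 in the RBFOX3 and 0.73 in the SLC30A8 line. KIF18B is a kinesin that shortens astral microtubules. The UBE2C peak (chr20:45812039-45812936) had 76.9 and 35.5 CPM, with 1.06 and 0.66 in the lines. The AURKB and CCNB2 peaks were higher in the RBFOX3 line (1.19 and 1.13) and not in the SLC30A8 line (-0.55 and -0.13). MKI67, a score gene, had 47.1 CPM in mitotic and 21.4 CPM in non-mitotic barcodes at its promoter, and TOP2A 77.4 and 50.1 CPM.

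The promoter peaks of PIF1, KIF14, CDC25C and PRR11, among the 12 genes with the highest line-balanced RNA ratios, did not pass 2-fold. KIF18B and AURKB, whose peaks did, had pooled RNA log2 ratios of 4.92 and 4.78, beside 4.91 for PRR11. The PIF1 peak (chr15:64825368-64826276), which spans the printed window, had 46.6 CPM in mitotic and 27.9 CPM in non-mitotic barcodes, 1.67 times as much (1.20 to 2.26), a log2 ratio of 0.72 beside a 95th percentile of 0.70 over all measured peaks. The KIF14 peak had 32.4 and 24.3 CPM, the CDC25C peak 70.1 and 62.6 CPM, and the PRR11 peak (chr17:59154979-59155864), around the printed window, 131 and 99.6 CPM. The lines went opposite ways at KIF14, with log2 ratios of 0.93 in the RBFOX3 and -0.88 in the SLC30A8 line, and at CDC25C, with 0.56 and -0.21. The CCNB1 peak had 42.9 CPM in mitotic and 44.7 CPM in non-mitotic barcodes, beside RNA levels of 293 and 16.0 CPM.

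**Figure D5:**
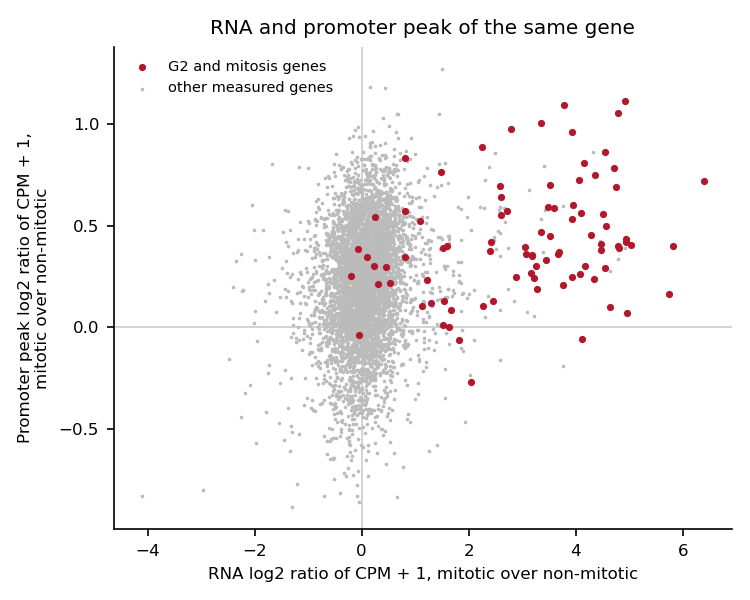
Log2 ratio of CPM + 1, mitotic over non-mitotic barcodes, of RNA (x axis) and of the promoter peak (y axis) for 5432 measured genes, with 88 G2 and mitosis genes in red. The red points spread to the right along the RNA axis, up to 6.39 at PIF1, while their promoter peaks lie between -0.27 and 1.11.

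Histone genes were also covered by the ATAC library. Of 47 promoter peaks of histone cluster genes 13 were measured, with a median log2 ratio of 0.54 (0.27 to 0.89), 0.65 in the RBFOX3 line and 0.42 in the SLC30A8 line, beside 0.23, 0.15 and 0.15 for all measured peaks. One, at HIST1H2BD (chr6:26157571-26158454), was 2-fold higher, with 58.1 CPM in mitotic and 25.3 CPM in non-mitotic barcodes, and 121 against 40.9 CPM within the SLC30A8 line. It was also among the 6 peaks with the highest line-balanced ratio. Neighbouring histone genes share promoters, so these peaks are not independent of each other.

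The highest peak by line-balanced ratio lay 13593 bases from the gene start of NRARP, a feedback inhibitor of Notch signalling, at chr9:137315864-137316724. It had 43.4 CPM in mitotic and 9.35 CPM in non-mitotic barcodes, 61.4 against 12.6 CPM within the RBFOX3 line and 24.8 against 7.95 CPM within the SLC30A8 line. It was higher in both lines, though the SLC30A8 value rests on 8 counts, about 4 fragments. The other 4 highest, at KCNQ1, AC009403.2, AC002378.1 and AC117465.1, had pooled log2 ratios of 0.78, 1.28, 0.32 and 0.49. In the SLC30A8 line the KCNQ1 peak had 2 counts in mitotic and 0 in non-mitotic barcodes and the AC009403.2 peak 2 and 3, so their rank rests on about 1 fragment. The 6 lowest lay at EGFR (2 peaks), ESRP1, MRPS17, JPH1 and PVT1. The EGFR peak at chr7:55078758-55079652 had 0 counts in mitotic barcodes of both lines, 7.69 and 5.91 CPM in non-mitotic barcodes of the RBFOX3 and SLC30A8 lines, and 47.6 against 26.2 CPM in the pool. The values within the lines give no direction: counting intervals of the ratio reached 1.21 in the RBFOX3 and 4.49 in the SLC30A8 line, and 32 of the 82 non-mitotic counts of the RBFOX3 line came from 1 barcode.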

How the data were processed

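The deposited matrix holds, per the file headers, whole-number counts of UMIs per gene and of ATAC signal per peak in each barcode, raw counts that the authors deposited without normalisation. The submitters' processing notes name Cell Ranger ARC 2.0.0 and the build GRCh38. Of the non-zero peak counts 83.3% were even and 61.5% equal to 2, so intervals of peaks used counts divided by 2. Whether RNA was counted by strand, how cells and peaks were called, and the annotation used are not stated by the labels or headers, so antisense and overlapping genes cannot be told apart. No doublets were removed from the values reported, and shared barcodes link both libraries.

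UMIs outside MT- genes and peak counts were summed per group, scaled to CPM (a total of 1000000), and compared as log2 ratios of CPM + 1 (Python 3.11.15, numpy 2.4.6, scipy 1.17.1, pandas 2.3.3). The ratio code was tested on simulated data. Alternatives used TMM factors (edgeR 4.0.16) and Scrublet (scanpy 1.11.5, the 87 highest scores left out). Named genes are the score genes, the 12 highest and 12 lowest by line-balanced ratio, up to 8 members a list by level, the 6 highest and 6 lowest peaks, members past 2-fold where a list has few, and others said to be chosen later. The members, lists and rules were chosen with earlier results of these data known. Depth within a barcode and ambient RNA limit what a single UMI shows.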

Additional observations from a re-analysis of the deposited data

Results flagged for a closer look

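Barcodes left out by the depth and MT- limits also held RNA of the 6 score genes: 46 of 809 (5.69%, exact binomial interval 4.19 to 7.51%) passed the mitotic score limits, against 81 of 2489 (3.25%) among those kept. This signal stood in barcodes that no comparison used. Of 378 barcodes over the MT- limit 31 passed (8.20%), of 337 with more than 40000 UMIs 2 passed (0.593%), and of 128 under the UMI minimum 11 passed.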

How the results depend on the processing

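The 88 higher genes of the G2 and mitosis lists numbered 68 to 101 under every alternative but one. Where it was computed in these, the promoter share pooled over lines was 5.32 to 6.32 points higher at the mitotic median, against 6.43 as reported. No alternative balanced this share by line. Its mitotic and non-mitotic medians were 66.2% and 63.8% in the RBFOX3 line and 65.4% and 61.3% in the SLC30A8 line. They were 60.4% and 56.8% in the GRIA4 line and 51.6% and 51.9% in the DHRS2 line. The exception set mitotic at 0.5% or more and non-mitotic at a score of 0, which left 6 mitotic and 890 non-mitotic barcodes and 259 measured genes. It gave 42 higher and 36 lower genes, 8 higher and 0 lower peaks, 0 higher members of the G2 and mitosis, S phase, DNA repair, nuclear envelope and histone lists, of which only 1, 0, 1, 0 and 0 members passed the minimum count, so these zeros say nothing about the lists, and a promoter share difference of 2.51 points. With those 6 barcodes the log2 ratio turned to -0.64 for TROAP, 1.05 for HDAC9, 0.0793 for KCNQ3, 0.37 for LINC00571, -2.30 for EXO1, -4.10 for HIST1H4C, -0.70 for STAG1 and -4.15 for the AC009403.2 peak. IFI44L turned to -1.45 in the line-balanced ratio (with 0 mitotic UMIs in both lines), -0.12 without barcodes of no line and the highest Scrublet scores, and -1.55 with MT- shares up to 10%. Lowering the minimum count to 0.25 of its value gave 689 higher and 844 lower genes, 726 higher and 1350 lower peaks, and 10 higher S phase genes. No minimum gave 1599 and 2866 genes, 6099 and 33390 peaks, and 10 S phase genes, since genes and peaks with few counts enter. The line-balanced ratio gave 788 lower genes, 41 higher and 221 lower peaks, 3 S phase and 7 DNA repair genes. Barcodes of 8000 to 30000 UMIs gave 2 S phase and 3 histone genes and 0 lower peaks. Leaving out barcodes of no line and the highest Scrublet scores gave 3 S phase genes, 3 histone genes and 5 lower peaks. An MT- limit of 10% gave 2 S phase, 7 DNA repair and 2 histone genes and 4 lower peaks. TMM factors gave 39 higher peaks, the mean of per-barcode CPM 161 higher and 27 lower ones, and peaks counted as open or closed 16 and 2. Apart from the changes in minimum and in barcodes, the cause of these moves was not tested. No paired analysis was possible because each assay has 1 library. Within the lines, 11 of the 12 lowest genes had no UMI in the 31 mitotic barcodes of one and 11 of 12 in the 18 of the other.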
